A study of Homo sapiens with 19 samples.

Results

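Dual-specificity phosphatases (DUSPs) and Sprouty proteins are feedback inhibitors of MAP kinase signalling, and the RNAs of 10 of them were followed through every library of this study with a deposited value. The genes were DUSP1, DUSP2, DUSP4, DUSP5, DUSP6, DUSP8, DUSP10, DUSP16, SPRY2 and SPRY4. They were taken by name, 10 of the 19942 protein-coding genes in the TPM and eCLIP tables and 33 of the 256980 transcripts in the rRNA-depleted table.

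The cells were SH-SY5Y, a human neuroblastoma line. Whole-cell rRNA-depleted RNA came from untreated cells and from cells given 500 µM sodium arsenite (AS) for 1 h, a treatment that makes stress granules (SGs) form. Knockdown cells carried a control siRNA (siCtrl) or an siRNA against G3BP1 or G3BP2, the core proteins of SGs, and lysate (Total) and SG cores purified with an antibody (SG) came from AS-treated cells. In eCLIP, UV light crosslinks RNA to the protein it touches and the protein is then precipitated, with duplicate libraries for either G3BP protein, without (Ctrl) and with AS, from the soluble part of the lysate. For every sample other than the rRNA-depleted pair the labels also carry a note of 50 mM for 1 h, on untreated samples too, so the group names and not this note decided which samples were treated.

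MAP kinases are switched on by phosphorylation of a threonine and a tyrosine, and DUSPs of the MAP kinase phosphatase group remove both phosphates. Many of these genes are themselves induced by the kinases that their products switch off, which closes a negative feedback loop. Sprouty proteins act higher up, between receptor tyrosine kinases and Ras, and are likewise induced by growth factor signalling. DUSP1, DUSP2, DUSP4 and DUSP5 are nuclear and inducible, DUSP6 is cytoplasmic and prefers ERK, and DUSP8, DUSP10 and DUSP16 prefer JNK and p38.

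Each RNA-seq condition had 1 library, so the RNA ratios below have no replicate check and no test. TPM of protein-coding genes summed to between 623955 and 735927 per library and carry no depth, whereas the rRNA-depleted values were scaled to 13291958 reads for the untreated and 11281587 for the AS library. In bulk RNA, fewer cells expressing a gene and less RNA per cell cannot be told apart. Of 12 sympathoadrenal neuroblastoma markers, 11 were above 1 TPM in each of the 5 TPM libraries, the exception being TH at 0 to 0.389 TPM. The summed level of 5 Schwann cell markers lay between 0.993 and 5.61 TPM. Of 7 mesenchymal markers, 6 were above 1 TPM in each library, with sums of 387 to 938 TPM, most of it TWIST1 at 344 to 855 TPM, and PRRX1 was at or near 0. Of 3 blood markers, HBB was listed at 0 in each library, PTPRC was at or near 0 and CD68 lay between 0.553 and 28.7 TPM, the highest value being in SG. Each siRNA target was lower in its own knockdown library, with G3BP1 at 18.7 TPM in siCtrl and 5.996 TPM in siG3BP1, and G3BP2 at 38.1 TPM in siCtrl and 11.4 TPM in siG3BP2.

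Short stretches of sequence show known elements in some of these genes. The first set comes from the 3′UTR, where the pentamer ATTTA is the core of AU-rich elements, which mark short-lived mRNAs. The windows of 30 bases were read from the GENCODE transcripts on GRCh38, minus strand, with ATTTA and overlapping copies of it in capitals, and they are shown for the genes in which such a window held 2 copies, as it did in 23.9% of 18380 protein-coding genes (DUSP4 was not searched for windows).
DUSP1, chr5:172768641-172768670: ggctggtccttATTTATTTAacttcacccg
DUSP8, chr11:1556372-1556401: ttcgattttttATTTATTTAagctgttcat
DUSP10, chr1:221701501-221701530: aagaaaaaaaaATTTATTTAaaaatatttt
DUSP16, chr12:12473583-12473612: gaagttacATTTAagaaaATTTAtaagaaa
The pentamer stood 4 times in the 666 nt 3′UTR of DUSP1, or 6.01 copies per kb, the 94.2nd percentile of those genes, whose median was 1.64 per kb. DUSP2 held 3 copies in 654 nt and DUSP10 held 3 copies in 988 nt, the 88.4th and 72.7th percentile per kb. DUSP8 held 4 copies in 2467 nt, the 49.6th percentile, SPRY2 held 2 in 782 nt, DUSP4 held 6 in 3962 nt and DUSP6 held 1 in 2019 nt, the 31.1st percentile. SPRY4 and DUSP16 held 8 copies each in longer 3′UTRs of 3779 and 3551 nt, the 58.2nd and 60.5th percentile per kb, and DUSP5 held 0 in 1107 nt. Of those genes, 71.0% held at least 1 copy.

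The second set comes from promoters, because CREB and ATF proteins, which stress and growth signals activate, bind the cAMP response element (CRE), spelled TGACGTCA and the same on both strands. RefSeq promoter windows (GRCh38.p14, 250 bases before to 50 after the start) were matched for 8 of the 10 genes, DUSP4 and DUSP5 having none. The CRE, in capitals, is on the minus strand of the genome with the gene.
DUSP1, chr5:172771302-172771331: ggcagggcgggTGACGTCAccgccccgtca
DUSP8, chr11:1572371-1572400: ccgggctccgcTGACGTCAcctgcccccga
DUSP8, chr11:1572327-1572356: ttggctgcaggTGACGTCAggggctttttt
The DUSP1 element begins 125 bases before the start, upstream of a TATA box, spelled TATAAA, 30 bases before it, and those of DUSP8 begin 118 and 74 bases before. A CRE stood in 2.30% of 21568 promoter windows, and a TATA box in 9.44%. AP-1 sites (TGANTCA), CArG boxes and heat shock elements, searched on both strands, had no match in the windows of these genes.

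The first comparison asked what AS did to the level of these RNAs in whole cells. DUSP1, DUSP5 and DUSP10 were each more than 7-fold higher after 1 h of AS, while DUSP4, DUSP6, SPRY2 and SPRY4 stayed close to the median ratio of all genes. A gene was called when its summed RPKM (reads per kb of transcript, scaled for library size) was past 2-fold with more than 1 RPKM in the higher library. By this rule 3 of the 8 members tested were higher and 0 lower, against a background of 7.63% higher and 1.41% lower among 12712 protein-coding genes. DUSP5, at 0.610 RPKM in untreated and 4.78 RPKM in AS-treated cells, passed the minimum only through the AS library. A gene under 1 RPKM in untreated cells could enter the count only by being above 1 RPKM after AS.

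DUSP1 (ENSG00000120129, chromosome 5, 172768096 to 172771195, minus strand, GRCh38), the founding MAP kinase phosphatase and an immediate early gene, has 1 transcript in the table. It had 63 reads, or 2.35 RPKM, in untreated cells and 433 reads, or 19.1 RPKM, after AS. The ratio was 8.10, with a 95% exact interval of 6.21 to 10.7 that covers counting error only. This placed DUSP1 at the 99.4th percentile of all genes tested.

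DUSP5 (chromosome 10, 110497907 to 110511533, plus strand), which dephosphorylates ERK in the nucleus, was low before treatment. Its coding transcript DUSP5-201 had 8 reads in untreated cells and 49 after AS, a ratio of 7.22 (95% interval 3.39 to 17.6). Its other transcript, DUSP5-202, had 4 and 28 reads. Summed over both, its RPKM was 7.84-fold higher.

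DUSP10 (chromosome 1, 221701424 to 221742089, minus strand), which acts on p38 and JNK, was also higher. Its coding transcript DUSP10-201 had 21 reads in untreated cells and 149 after AS, a ratio of 8.36 (5.27 to 13.9). The 3 other DUSP10 transcripts, each annotated as a target of nonsense-mediated decay, had ratios of 7.42, 5.89 and 7.07. All 4 transcripts of the gene were thus higher, although transcripts of 1 gene share reads and are not separate measurements.

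DUSP4 and DUSP6, which were abundant before treatment, moved little. DUSP4-201, from a gene of the inducible nuclear group, had 631 reads in untreated cells and 691 after AS, a ratio of 1.29 (1.16 to 1.44). DUSP6-201, from the gene of the cytoplasmic ERK phosphatase, had 263 and 301 reads, a ratio of 1.35 (1.14 to 1.597). The ratio of all genes had a median of 1.22, which lies inside both intervals. An antisense lncRNA that overlaps 1487 nt of DUSP6 had 51 reads in each library, and without strand its reads and those of DUSP6 cannot be told apart.

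The Sprouty transcripts were near 1. SPRY2-202 had 216 reads in untreated cells and 222 after AS, a ratio of 1.21 (1.00 to 1.47). SPRY4-202 had 439 and 404 reads, a ratio of 1.08 (0.945 to 1.24). The antisense lncRNA SPRY4-AS1 overlaps 1247 nt of SPRY4, and its transcripts had at most 27 reads in untreated cells and 17 after AS. Without strand, reads in the overlap cannot be assigned to either gene. When the AS library was rescaled so that the median gene had a ratio of 1, a shift of 0.28 on the log2 scale, the summed ratios of SPRY2 and SPRY4 were 0.982 and 0.859, and those of DUSP1, DUSP5 and DUSP10 were 6.67, 6.45 and 5.96.

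The remaining genes had few or no reads. DUSP2-201, from a gene best known in immune cells, had 22 reads in untreated cells and 16 after AS, a ratio of 0.857 (0.421 to 1.71). Summed over its transcripts, DUSP2 had a ratio of 0.673, the 2.60th percentile of all genes, and of 0.555 with the median gene set to 1, neither past 2-fold. The sum includes the retained-intron transcript DUSP2-202, with 8 reads in untreated cells and 3 after AS, a ratio of 0.442 (0.0755 to 1.84). With coding transcripts only, the log2 ratio of DUSP2 was -0.22. Its level was then below the minimum, at 0.982 RPKM in untreated and 0.842 RPKM in AS-treated cells. DUSP8-202, for a phosphatase of JNK and p38, had 10 and 9 reads, a ratio of 1.06 (0.381 to 2.90), and the gene was below the minimum of 1 RPKM. DUSP16, which also acts on JNK and p38, was listed at 0 for all 6 of its transcripts in both libraries, although it reached 5.74 TPM in siCtrl. Of 11986 genes above 1 TPM in siCtrl, 201 (1.68%) were likewise at 0 in both rRNA-depleted libraries, so no level is read from these zeros.

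**Figure D1:**
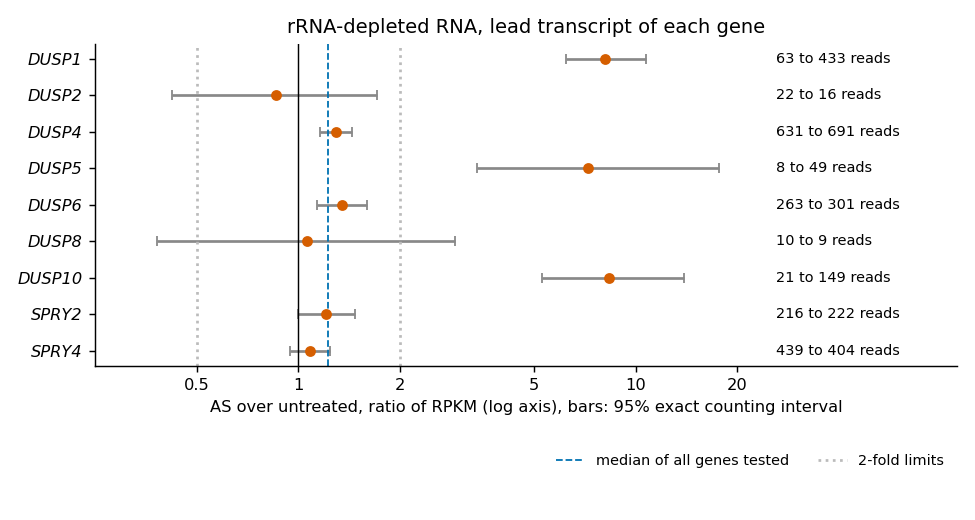
Ratio of AS to untreated RPKM (log axis) for the transcript with the most reads of each gene, with 95% exact counting intervals and the reads behind each ratio. DUSP16 is left out because it is listed at 0. The intervals of DUSP1, DUSP5 and DUSP10 lie above 2, and those of the other 6 genes reach the median of all genes (dashed, 1.22).

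Genes around the family were counted in the same way. Of 13 other DUSP genes tested, 0 were higher and 0 lower, with a median ratio of 1.26. Among 4 other Sprouty and SPRED genes, SPRED3 was higher, at 4.40 RPKM in untreated and 9.26 RPKM in AS-treated cells, and SPRY1 was lower, at 2.03 and 0.833 RPKM. Of 26 genes of the Ras to ERK cascade, MAP2K1, which encodes the ERK kinase MEK1, was 2.08-fold higher, FGFR2 was at 0.442, and 24 were neither. Of 9 MAP kinases, MAPK13, a p38 isoform, was 4.79-fold higher at a low level of 1.33 RPKM after AS, and passed the minimum only there.

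The ERK-responsive transcripts split in the same libraries. EGR1, an immediate early transcription factor, had 0.408 RPKM in untreated and 134 RPKM in AS-treated cells, and FOS had 0.768 and 236 RPKM. FOSL1 was 3.80-fold higher, and 6 of the 9 genes tested in this list were neither higher nor lower, with a median over the list of 1.30. EGR1, FOS and FOSL1 were each under 1 RPKM in untreated cells and passed the minimum only through the AS library. Some low-level markers of other cell types also passed the rule in this comparison, namely 2 of 4 Schwann cell markers higher and 1 lower, 1 of 4 mesenchymal markers higher and 1 lower, and CD68 of the blood markers, at 2.45 and 8.33 RPKM. Their part in the results was not tested.

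The next comparison set SG cores against the Total lysate of AS-treated cells. Every gene of the family had a higher TPM in SG than in Total as deposited (DUSP1 and DUSP2 did not once SG was rescaled to a median ratio of 1), and 9 of 10 were SG-enriched by more than 2-fold on TPM + 1, with 0 depleted. The background was high, since 62.9% of 13560 genes were enriched and 9.45% depleted. The median ratio of the 10 genes was 6.43, against 2.86 for all genes.

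The Sprouty RNAs had high ratios. SPRY4 (chromosome 5, 142310427 to 142326455, minus strand) was at 6.19 TPM in Total and 203 TPM in SG, a ratio of 28.4 and the 96.9th percentile of all genes. SPRY2 (chromosome 13, 80335976 to 80341126, minus strand) was at 10.7 and 175 TPM, a ratio of 14.96. SPRY4 had the largest ratio of the 10 genes and also the largest level in SG.

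Among the phosphatases of JNK and p38, DUSP16 was at 2.86 TPM in Total and 59.7 TPM in SG, a ratio of 15.7. DUSP10 was at 14.8 and 86.6 TPM, a ratio of 5.55, and DUSP8 was at 2.99 and 22.3 TPM, a ratio of 5.84. The cytoplasmic ERK phosphatase DUSP6 was at 8.02 and 93.0 TPM, a ratio of 10.4. These 4 genes lay between the 70.0th and the 91.2nd percentile of all genes.

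The nuclear inducible group spanned ratios from 1.65 to 7.08. DUSP4 was at 11.9 TPM in Total and 90.02 TPM in SG, a ratio of 7.08. DUSP5 was at 5.33 and 19.7 TPM, a ratio of 3.27, and DUSP1 was at 74.4 and 190 TPM, a ratio of 2.53. DUSP2, at 4.29 and 7.71 TPM, had a ratio of 1.65 and was the gene not called. DUSP1 thus had the highest Total level of the family and, after SPRY4, the highest SG level, with a ratio above that of DUSP2 only.

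Over all genes the ratio of SG to Total was higher in classes of longer transcripts, so the members were also read beside genes of like length. The median ratio was 0.821 for 3465 genes with a canonical transcript under 2000 nt, 2.43 for 4823 genes from 2000 nt up to 4000 nt, and 7.19 for 5260 genes of 4000 nt or more. SPRY2, with a transcript of 2286 nt, was at the 98.9th percentile of its length class, and DUSP6, with 3627 nt, at the 96.5th. SPRY4, with 4904 nt, was at the 92.9th percentile of the longest class.

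Other members lay lower within their length class. DUSP4, with 5553 nt, was at the 49.2nd percentile of its class, DUSP8, with 4824 nt, at the 42.2nd and DUSP1, with 2013 nt, at the 52.2nd. DUSP1 lies just above the limit of 2000 nt, and its ratio of 2.53 was above the upper quartile of 1.81 in the class under 2000 nt. DUSP2, with 1685 nt, was at the 72.1st percentile of the shortest class. DUSP5, DUSP10 and DUSP16 lay at the 65.3rd, 84.8th and 79.4th percentiles of theirs.

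**Figure D2:**
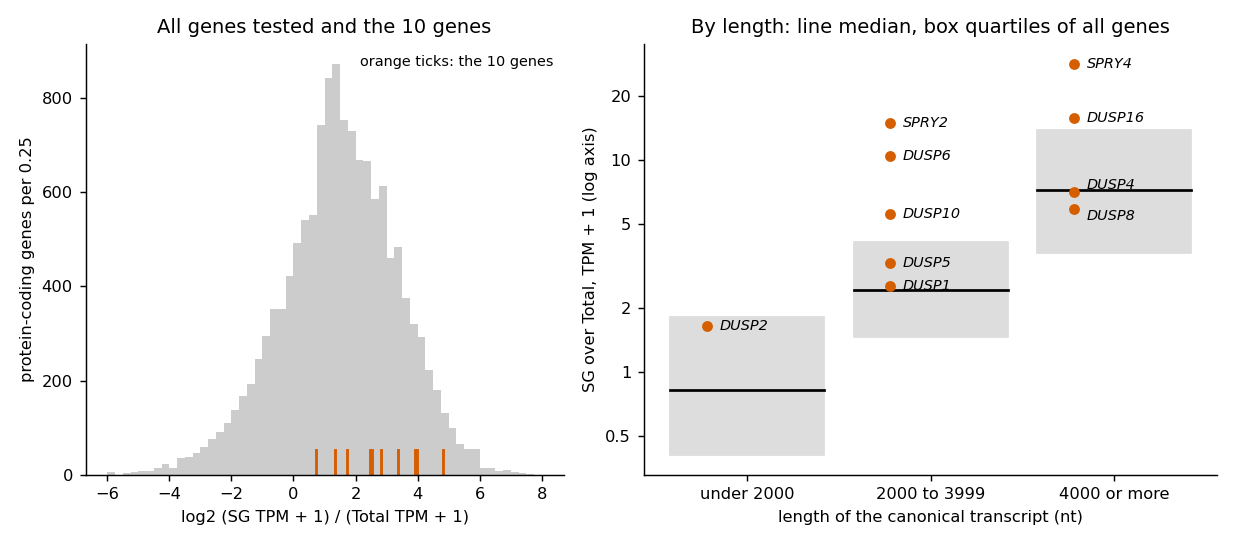
Left, log2 ratio of SG to Total on TPM + 1 for all 13560 genes tested (grey, with values beyond the axis placed in the end bins) and for the 10 genes (orange ticks). Right, the same ratio on a log axis by length of the canonical transcript, with the median and quartiles of all genes in grey and black. SPRY2, DUSP6, DUSP10, SPRY4 and DUSP16 lie above the upper quartile of their class.

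Because most genes had a higher value in SG than in Total, the ratio depends on scaling. With SG rescaled so that the median gene had a ratio of 1, 7 genes were enriched and DUSP1 changed sign, to a ratio of 0.921, with DUSP5 at 1.28 and DUSP2 at 0.714. SPRY4 was then at 10.3, DUSP16 at 5.83, SPRY2 at 5.44 and DUSP6 at 3.83.

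Related genes were counted beside the family. All 5 other Sprouty and SPRED genes were SG-enriched, with a median of 12.5, led by SPRY1 at 1.91 TPM in Total and 64.4 TPM in SG. Of 27 genes of the Ras to ERK cascade, 23 were enriched and 2 depleted, with a median of 7.94, and NF1, which switches Ras off, was at 1.30 and 103 TPM. HRAS and MAP2K2, at ratios of 0.296 and 0.355, were the depleted ones.

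The other DUSP genes differed in their counts from the 10 described here. Of 14 tested, 6 were enriched and 2 depleted, and their median of 1.65 was below that of all genes. DUSP7, the paralog of DUSP6, was at 8.79 TPM in Total and 68.4 TPM in SG. DUSP23, a small atypical phosphatase, was at 112 TPM in Total and 10.5 TPM in SG, a ratio of 0.101, and STYXL1 was at 0.447. Of 9 MAP kinases, 6 were enriched and 0 depleted.

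The knockdown libraries asked whether the family depends on G3BP1 or G3BP2. By the 2-fold rule, 0 of 10 genes were higher and 0 lower in siG3BP1, where 2.53% of 12280 genes were higher and 3.69% lower. The same counts of 0 held for siG3BP2, where 2.43% of 12229 genes were higher and 5.62% lower. Both comparisons use the same siCtrl library.

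The levels were close in the 3 libraries. DUSP4 was at 33.7 TPM in siCtrl, 34.2 TPM in siG3BP1 and 30.8 TPM in siG3BP2, and DUSP6 was at 26.7, 25.4 and 25.2 TPM. SPRY2 was at 34.4, 37.9 and 40.999 TPM, and was the gene with the highest ratio in both knockdowns, 1.10 and 1.19. SPRY4 was at 25.5, 19.3 and 17.8 TPM, with ratios of 0.758 and 0.697, and the latter was the lowest ratio of the family in siG3BP2.

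DUSP1 was at 18.0 TPM in siCtrl, 14.3 TPM in siG3BP1 and 17.0 TPM in siG3BP2. DUSP2 was at 15.3, 13.8 and 12.1 TPM, and DUSP5 was the lowest of the family at 2.80, 2.18 and 2.44 TPM. Like DUSP1, DUSP2, DUSP5, DUSP6 and SPRY4, the JNK and p38 phosphatases had lower values in both knockdown libraries that did not pass 2-fold. DUSP8 was at 10.6, 8.005 and 8.06 TPM, DUSP10 at 8.30, 7.62 and 7.08 TPM and DUSP16 at 5.74, 4.74 and 4.21 TPM. The lowest ratio in siG3BP1 was that of DUSP8, 0.757. The median over the 10 genes was 0.862 in siG3BP1 and 0.861 in siG3BP2, against 0.940 and 0.916 for all genes. Set directly against each other, siG3BP2 and siG3BP1 differed by ratios of 0.878 to 1.19.

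**Figure D3:**
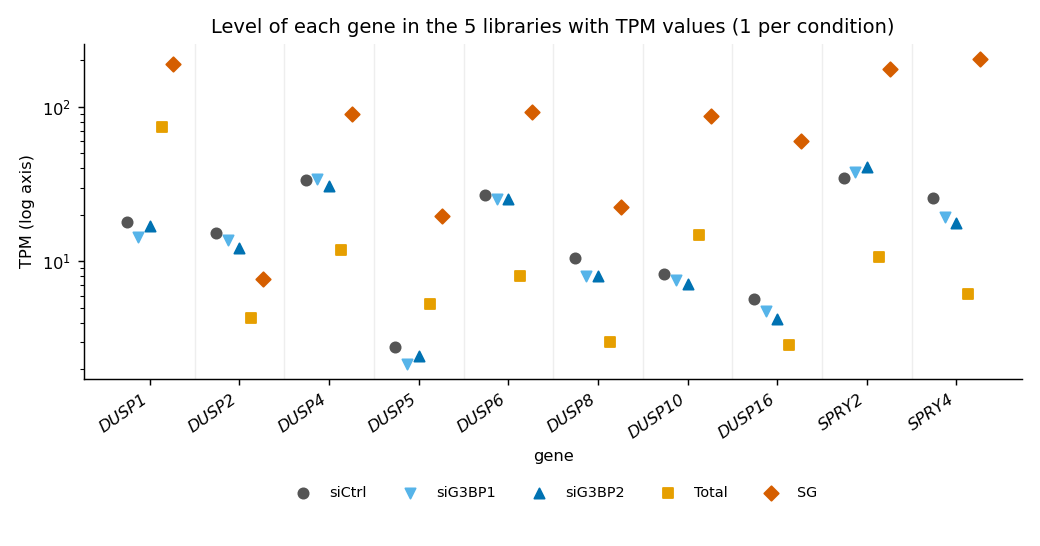
TPM (log axis) of each gene in the 5 libraries, 1 symbol per library. The 3 siRNA libraries lie close together for each gene, SG is the highest library for 9 of 10 genes, and Total is the lowest for 7 but lies above the siRNA libraries for DUSP1, DUSP5 and DUSP10.

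Total and siCtrl were also set side by side, as a description only, because they differ in AS, in siRNA and in how the lysate was made. DUSP1, at 18.0 TPM in siCtrl and 74.4 TPM in Total, was the 1 gene called higher, and 7 genes were called lower, where 2.37% of 12173 genes were higher and 27.2% lower. DUSP5 was at 2.80 TPM in siCtrl and 5.33 TPM in Total, and DUSP10 at 8.30 and 14.8 TPM, ratios of 1.90 and 1.78 that did not pass 2-fold. They stood at the 97.4th and 96.9th percentile of all genes, and DUSP1 at the 99.4th.

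The 7 genes called lower had ratios from 0.243 for SPRY4 to 0.498 for DUSP16, against a median of 0.718 for all genes. DUSP2 was at 0.280, DUSP4 at 0.352, DUSP6 at 0.300, DUSP8 at 0.283 and SPRY2 at 0.312. With Total rescaled to a median ratio of 1, DUSP5 and DUSP10 passed 2-fold, at 2.54 and 2.37, DUSP16 no longer passed, and the split was 3 higher and 6 lower. The 3 genes above siCtrl in Total were those called higher after AS in the rRNA-depleted libraries, which share no library with this pair.

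The genes whose TPM pattern was most like that of 3 members were found by Euclidean distance on centred log2(TPM + 1) over the 5 libraries, among 10757 genes. Nearest to DUSP1 were ATF3 (distance 0.298), DNAJB1 (0.332) and HSPA1A (0.439), the last at 15.001 TPM in siCtrl, 79.3 TPM in Total and 225 TPM in SG, values that may be shared with its near-identical copy HSPA1B. Nearest to DUSP6 were CASD1 (0.129), ZNF862 (0.149) and MYC (0.161). Nearest to SPRY4 were C14orf132 (0.132), SLC7A1 (0.137) and POLR1A (0.150).

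The eCLIP libraries asked which RNAs G3BP1 and G3BP2 bound, and whether AS changed it. The deposited eCLIP value of a gene, which the table's header calls peaks, is log10 of a whole number plus 1, of a kind the sources used here do not state, and is not scaled between libraries, whose numbers summed to between 4268657 and 26179732. No member passed the threshold of 0.05 in the limma test of AS against untreated cells for either protein. For G3BP1, 0 of 18888 genes were called in all (0.0% higher and 0.0% lower), with 16 higher and 30 lower at an unadjusted p under 0.05. The G3BP2 fit called 2 of 19035 genes (0.0105%) higher and 0 (0.0%) lower, with 70 and 89 at an unadjusted p under 0.05.

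DUSP1 had small eCLIP values, and smaller ones after AS. The whole numbers behind its values were 16 and 7 in untreated G3BP1, 17 and 10 in untreated G3BP2, 2 and 1 in AS G3BP1, and 3 and 4 in AS G3BP2. Both AS libraries of a protein were below both untreated ones, as for 2.27% of genes in G3BP1 and 3.35% in G3BP2, and all 4 AS libraries were below all 4 untreated libraries, as for 0.535% of 19259 genes. On the log10 scale the mean was 1.07 ± 0.23 in untreated and 0.39 ± 0.13 in AS G3BP1 (SD, n = 2), and 1.15 ± 0.16 and 0.65 ± 0.07 (SD, n = 2) for G3BP2.

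The change of DUSP1 was -0.68 ± 0.57 (SE) for G3BP1 and -0.50 ± 0.43 (SE) for G3BP2, with an adjusted p of 1 in limma for each. Averaged over both proteins, in a fit chosen after seeing the data, it was -0.59 ± 0.34 (SE), with an unadjusted p of 0.0796 and an adjusted p of 1 in limma. That fit called 0 members, and 0.0104% of genes higher and 0.026% lower. As a share of each library's sum, DUSP1 lay between 0.657 and 1.02 ppm in untreated and between 0.0891 and 0.523 ppm in AS libraries, again without overlap, as for 2.93% of genes. The RNA of DUSP1 was 8.10-fold higher after AS in the rRNA-depleted libraries, which are other libraries prepared in another way. The gene lies wholly within an antisense lncRNA gene whose transcripts had at most 1 read.

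DUSP10 had the largest eCLIP values of the family. Its G3BP1 values on the log10 scale were 2.80 and 2.35 without AS and 2.75 and 1.92 with it, and its G3BP2 values were 2.82 and 2.43 without AS and 2.82 and 2.36 with it. Replicate 1 was above replicate 2 in every group, as was its library's sum, and the treatments overlapped for both proteins. As a share of each library's sum, DUSP10 was at 26.26 and 32.82 ppm without AS and 24.75 and 19.25 ppm with it for G3BP1, lower without overlap as were 14.5% of genes, and at 25.2 and 25.11 ppm without and 25.31 and 29.76 ppm with AS for G3BP2, higher without overlap as were 14.7%. The limma changes of DUSP10 were -0.24 ± 0.60 (SE) for G3BP1 and -0.04 ± 0.42 (SE) for G3BP2, with an adjusted p of 1 for each, while its summed RPKM was 7.23-fold higher after AS in the rRNA-depleted libraries.

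SPRY4 came next, at 1.97 and 1.97 without AS and 2.32 and 1.64 with it for G3BP1, and at 2.12 and 2.05 without and 2.30 and 2.03 with AS for G3BP2. DUSP4 had 2.06, 1.58, 2.1 and 1.36 in the same order for G3BP1, and 2.1, 1.82, 2.04 and 1.72 for G3BP2. The treatments overlapped for both genes and both proteins. DUSP5 varied more between duplicates than between treatments, with 1.95 and 0.95 in untreated G3BP1 and 1.80 and 1.04 in AS G3BP1.

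For G3BP2, DUSP5 had 2.0 and 1.32 in untreated and 1.95 and 1.59 in AS libraries, which also overlapped. DUSP6 was lower without overlap after AS for G3BP1, at 1.67 and 1.46 in untreated and 1.11 and 1.04 in AS libraries, as was the case for 2.27% of genes in that protein. For G3BP2 its values overlapped, at 1.53 and 1.75 in untreated and 1.63 and 1.11 in AS libraries, and as shares of each library's sum the G3BP1 values overlapped as well. The change of DUSP6 for G3BP1 was -0.49 ± 0.62 (SE), with an adjusted p of 1 in limma.

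SPRY2 was higher without overlap after AS for G3BP1, at 0.95 and 1.18 in untreated and 1.75 and 1.32 in AS libraries, as were 0.852% of genes on these unscaled values. As a share of each library's sum, it was at 0.330 and 2.08 ppm in untreated and 2.44 and 4.66 ppm in AS G3BP1, without overlap. How many genes were higher in this way on that scale is not given here. For G3BP2, SPRY2 had 1.11 and 1.61 in untreated and 1.36 and 1.28 in AS libraries, which overlapped. Its change for G3BP1 was 0.47 ± 0.62 (SE), with an adjusted p of 1 in limma. The test of whether AS acted differently on the proteins called 0 of 19259 genes (0.0% in either direction, 22 and 26 at an unadjusted p under 0.05), and gave SPRY2 a difference of -0.51 ± 0.70 (SE) between G3BP2 and G3BP1.

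DUSP2 and DUSP8 were near the floor. DUSP2 had 1.23 and 1.18 in untreated and 1.18 and 0 in AS G3BP1, and 0.85 and 0.95 in untreated and 1.41 and 0.78 in AS G3BP2. As a share of each library's sum, the untreated G3BP1 values of DUSP2 were 0.666 and 2.08 ppm. Those with AS were 0.623 and 0 ppm, lower without overlap as were 14.5% of genes. DUSP8 was at 0 in both untreated G3BP2 libraries and had whole numbers of 2 and 10 in the AS libraries. It entered the test, which asked for 2 libraries above 0, only through the AS libraries. Its higher values without overlap were thus fixed in advance, also as a share of each library's sum, where a 0 stays 0. The shares of all genes higher without overlap, 1.51% and 14.7%, do not measure how rare this is. The adjusted p of DUSP8 in limma was 1. DUSP16 was at 0 in 7 of 8 libraries, and 126 genes were both at 0 in at least 7 eCLIP libraries and at 0 in both rRNA-depleted libraries while above 1 TPM in siCtrl.

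**Figure D4:**
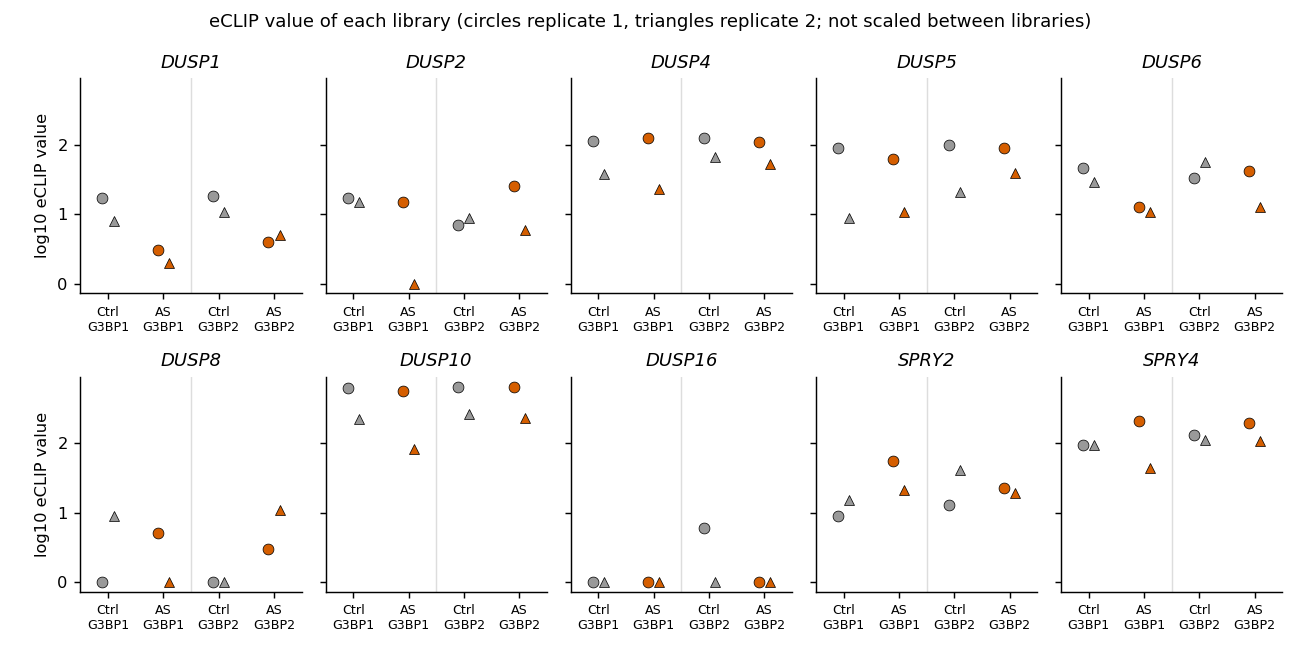
log10 eCLIP value of each gene in the 8 libraries, grey for untreated and orange for AS, circles for replicate 1 and triangles for replicate 2, not scaled between libraries. The 4 AS values of DUSP1 lie below its 4 untreated values, and the duplicates of DUSP5 and DUSP10 differ by as much as the treatments or more. In every group the library of replicate 1 had the larger sum.

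No member passed the test of G3BP2 against G3BP1 in the same fit, which called 0 of 19259 genes (0.0% in either direction, with 82 higher and 12 lower at an unadjusted p under 0.05). The differences of G3BP2 against G3BP1 ran from -0.03 for DUSP8 to 0.28 for DUSP5, the latter with an SE of 0.35, and the median of all genes was 0.14. With the libraries scaled to the same total, the median of all genes was 0.01 and the split at an unadjusted p under 0.05 was 119 higher and 116 lower, with 0 genes called after adjustment. As a share of the library's sum and per kb of genomic span, introns included, the mean over the 8 libraries placed DUSP10 at the 68.8th and SPRY4 at the 64.1st percentile of 19910 genes. DUSP6 was at the 52.0th, SPRY2 at the 49.0th, DUSP4 at the 36.9th and DUSP1 at the 19.7th percentile. Without the division by span, the mean whole number placed SPRY4 at the 41.3rd and SPRY2 at the 18.9th percentile. Their RNAs had the 96.9th and 90.6th percentile of SG to Total ratios. The eCLIP levels were not divided by RNA level, so these percentiles are of unlike measures.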

How the data were processed

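RNA of SH-SY5Y cells was measured by RNA-seq and by eCLIP of G3BP1 and G3BP2. The authors deposited TPM per protein-coding gene for the siRNA, SG and Total libraries, computed by StringTie from HISAT2 2.1.0 alignments. The deposited rRNA-depleted values per transcript are headed TPM, but whole reads were recovered from them as RPKM: 100.0% of values came out whole within 0.05 of a read. They are called RPKM here and were summed per gene. Reads recovered over transcripts summed to 23301040 and 23353992, as the authors' counting gave a read to several transcripts of a gene. The authors deposited eCLIP values as log10 of a whole number plus 1, and which filtering steps that number includes is not given in the sources used here. SMInput libraries were not analysed here.

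The 10 genes, and the lists set beside them, were chosen with earlier results of these data known. All 10 are described, and other genes are named as up to 3 with the largest and 3 with the smallest ratio per list among those called in the AS or SG comparison, the knockdown targets, and the 3 nearest in pattern to DUSP1, DUSP6 and SPRY4. Not every gene so chosen is reported here. Groups were taken from the sample labels. Ratios used a threshold of 2 or 0.5 and needed more than 1 in the library with the higher value, on TPM + 1 for SG against Total. Intervals are exact for counting error at 95%. The design had foreseen counts as one possibility for eCLIP; on the log10 values, limma 3.58.1 (R 4.3.3, intensity trend, Benjamini-Hochberg adjustment) was fitted over all genes above 0 in at least 2 libraries, after both rules were tested on simulated data. The p-values measure a spread between duplicates, which may be technical. In the main fits limma took this spread from all genes by level rather than from the gene itself. The libraries were not scaled there, so differences in their sums enter it. The SE of DUSP1 for G3BP1 was 0.57 in the main fit. It was 0.32 with the libraries scaled to the same total and 0.16 with the replicate number as a block. Of the 19942 gene IDs, 19910 matched GENCODE release 44, another release than the authors' 41, and 91.1% of transcript IDs did. The software was Python 3.11.15 with pandas 2.3.3, scipy 1.17.1, numpy 2.4.6 and matplotlib 3.10.9. Alternatives covered thresholds, minimums, pseudocounts, scaling, the transcript used, the replicate number as a block, filters and leaving out each eCLIP library.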

Additional observations from a re-analysis of the deposited data

How the results depend on the processing

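Over the alternatives for thresholds, minimums, scaling, pseudocounts and the transcript used, 2 or 3 genes were called higher after AS, 7 to 10 were SG-enriched, and 0 were called in either knockdown. The SG to Total ratio of DUSP1 changed sign when the median gene was set to 1, to -0.12 on the log2 scale. At 4-fold, 2 genes were called between Total and siCtrl, 1 higher and 1 lower, instead of 8. With a minimum of 10, DUSP5 was no longer called after AS. In eCLIP 0 members were called under each alternative, including the replicate block, in which the replicate number was a term, and leaving out each library in turn (0 to 0 for each comparison). Same-numbered libraries deviated together, with correlations of 0.124 to 0.555 over 16476 genes, but the labels do not say what a number marks. In the fit over both proteins, which was chosen after seeing the data, the block took the unadjusted limma p of DUSP1 to 0.00561 and its adjusted p to 0.306, and over all alternatives the adjusted p ran from 0.306 to 1. The change of DUSP1 was negative in each of these fits. For G3BP2 against G3BP1 the block took the genes at an unadjusted p under 0.05 from 82 higher and 12 lower to 1473 and 32, with 0 called after adjustment. The whole numbers behind the eCLIP values of DUSP1, DUSP2, DUSP8 and DUSP16 are small, 1 library stood behind each RNA ratio, and TPM gives no depth. These limit what the comparisons can show.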
